A study of Mus musculus with 3 samples.

Results

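The 10 genes described here encode secreted signals of the TGF-beta family and 1 receptor that binds them: Tgfb1, Tgfb2, Tgfb3, Bmp2, Bmp4, Bmp5, Bmp7, Gdf10, Inhba and Eng. They were chosen by symbol, and all 10 of 10 were found among the 30406 genes that the count tables of the 3 libraries share. Their unique molecular identifiers (UMIs, each a counted mRNA molecule) were followed across 4 classes of cells from the mouse intervertebral disc, namely nucleus pulposus (NP), connective tissue, endothelial and blood cells. Each class was gated by fixed marker genes, and none of the 10 genes is such a marker. The discs came from untreated mice at postnatal day 30 of the genotype shh-cre:R26R-tdTomato, in which Cre driven from Shh switches on the red protein tdTomato in cells of notochord origin and their descendants. Lumbar, thoracic and caudal discs were digested with collagenase, sorted for tdTomato and sequenced from the 3' end in 3 replicate libraries, each a pool of litter-matched animals. All libraries belong to 1 group, so the comparisons are between cell classes within it.

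TGF-beta family ligands are secreted dimers that bring together type I and type II receptors, and the receptors phosphorylate Smad proteins that enter the nucleus and change transcription. TGF-beta ligands leave the cell in a latent form that must be released, whereas BMPs are held in check by secreted antagonists. In the spine the family is known for its part in forming cartilage and the annulus fibrosus of the disc, and endoglin, the product of Eng, is a co-receptor best known from endothelial cells.

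Most sequenced cells were blood cells despite the sort, 75.9% ± 15.3 of the 26882 kept cells (mean and SD over 3 libraries), and NP cells were 3.34% ± 4.55. Libraries 1, 2 and 3 held 491, 130 and 25 NP cells, 1126, 643 and 869 connective tissue cells, 145, 44 and 41 endothelial cells and 3343, 9311 and 8607 blood cells. NP cells of library 3 summed to 71370 UMIs, so that 1 UMI there equals 14.0 CPM, the unit of every level below, in which a gene's UMIs are scaled to 1000000 UMIs of its class in a library. It is not corrected for transcript length, and levels were compared between cell classes for 1 gene and never between genes. CPM is scaled by the total UMIs of a class alone, whereas the fits also use TMM size factors. An order by CPM and a fitted difference can therefore disagree. The 4 NP markers Krt8, Krt18, Krt19 and T summed to 6622 to 9612 CPM in the NP class and to at most 13.7 CPM in the other 3 classes. The 8 endothelial markers summed to 7329 to 9938 CPM in the endothelial class. Markers of other types were not absent from the NP class. Mural markers summed to 1019 to 1990 CPM there, with 1 to 3 of 6 having a UMI by library, Acta2 alone in library 3 and Rgs5, Kcnj8 and Abcc9 at 0 in all libraries. Annulus markers summed to 702 to 1174 CPM (2 to 5 of 8; Tnmd, Thbs4 and Kera at 0 in all libraries) and chondrocyte markers to 140 to 218 CPM (2 to 6 of 8; Matn1 and Epyc at 0 in all libraries). Monocyte or macrophage markers summed to 188 to 280.2 CPM (1 to 7 of 8), marrow stromal markers to 28.0 to 121 CPM (1 to 4 of 6), neutrophil markers to 23.3 to 99.3 CPM (2 to 7 of 8) and osteoblast markers to 7.31 to 98.1 CPM (3 or 4 of 8). Pan-blood markers summed to 14.0 to 55.9 CPM, and no other list passed 43.9 CPM. The part of these markers in the NP levels was not tested. Libraries 2 and 3 share 224 cell barcodes, library 1 shares 24 with library 2 and 29 with library 3, and no barcode occurs in all 3.

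The sequences just upstream of the start site are shown for Tgfb2 and Bmp5, the genes called higher in NP cells than in connective tissue, and for Eng, whose endothelial level stood apart from every other class. They are the 250 bases before the RefSeq start site on GRCm38.p6 (the mm10 build), 5' to 3' on the gene's own strand. Capitals mark any match, on either strand, to a TATA box (TATAAA), an E-box (CACGTG), an ETS core (AGGAAG), a Smad-type element (CAGACA), a Sox element (AACAAT) or a GC box (GGGCGG). Tgfb2 lies at chr1:186705990-186706239 on the minus strand, Bmp5 at chr9:75775115-75775364 on the plus strand and Eng at chr2:32646345-32646594 on the plus strand.
Tgfb2: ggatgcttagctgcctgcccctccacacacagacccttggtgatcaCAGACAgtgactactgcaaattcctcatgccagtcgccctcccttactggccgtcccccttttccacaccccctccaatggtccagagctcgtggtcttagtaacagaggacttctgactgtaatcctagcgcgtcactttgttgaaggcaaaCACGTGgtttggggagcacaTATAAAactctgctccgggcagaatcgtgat
Bmp5: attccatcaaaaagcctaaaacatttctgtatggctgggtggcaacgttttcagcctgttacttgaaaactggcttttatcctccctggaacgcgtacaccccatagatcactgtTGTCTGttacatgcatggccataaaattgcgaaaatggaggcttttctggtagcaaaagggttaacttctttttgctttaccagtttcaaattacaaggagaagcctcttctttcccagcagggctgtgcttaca
Eng: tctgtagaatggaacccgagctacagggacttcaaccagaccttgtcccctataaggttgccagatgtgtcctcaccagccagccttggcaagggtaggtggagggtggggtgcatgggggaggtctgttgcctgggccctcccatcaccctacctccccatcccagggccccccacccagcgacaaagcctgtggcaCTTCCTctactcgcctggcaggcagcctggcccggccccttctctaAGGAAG
The Tgfb2 window held a CAGACA match at -204, a CACGTG match at -51 and a TATAAA match at -31, counted from the start site. The Bmp5 window held 1 CAGACA match, as its reverse TGTCTG, at -135, and the Eng window held 2 AGGAAG matches, at -52 as the reverse CTTCCT and at -6. Among 32851 mouse promoter windows of this length, 12.4% held TATAAA, 6.02% CACGTG, 29.5% AGGAAG and 17.1% CAGACA. These matches describe the letters of the window and not sites shown to be bound. Sequences were found for 7 of the 10 genes.

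Against connective tissue, 2 of the 10 genes were higher in NP cells (Tgfb2 and Bmp5), 7 were lower (Tgfb1, Bmp2, Bmp4, Bmp7, Gdf10, Inhba and Eng) and Tgfb3 passed no threshold. Over all 13431 genes tested with edgeR's quasi-likelihood test, 22.8% had a Benjamini-Hochberg adjusted p under 0.05 in this comparison, 9.08% higher and 13.8% lower. The median log2 fold change of the 10 genes was -2.62, with genes at 0 UMIs set at their bound or left as fitted, beside -0.20 over all genes. The library ranges of NP and connective tissue did not overlap for 8 of the 10 genes, beside 36.5% of all genes tested. For Bmp2, Bmp4, Bmp7, Gdf10, Inhba and Eng the NP value of library 3 was 0 UMIs. At its depth a 0 there allows up to 42.0 CPM, above the connective levels of these genes in that library. For them the order therefore rests on libraries 1 and 2. For Bmp5 it does so as well, since its NP value of library 3 is 2 UMIs.

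**Figure D1:**
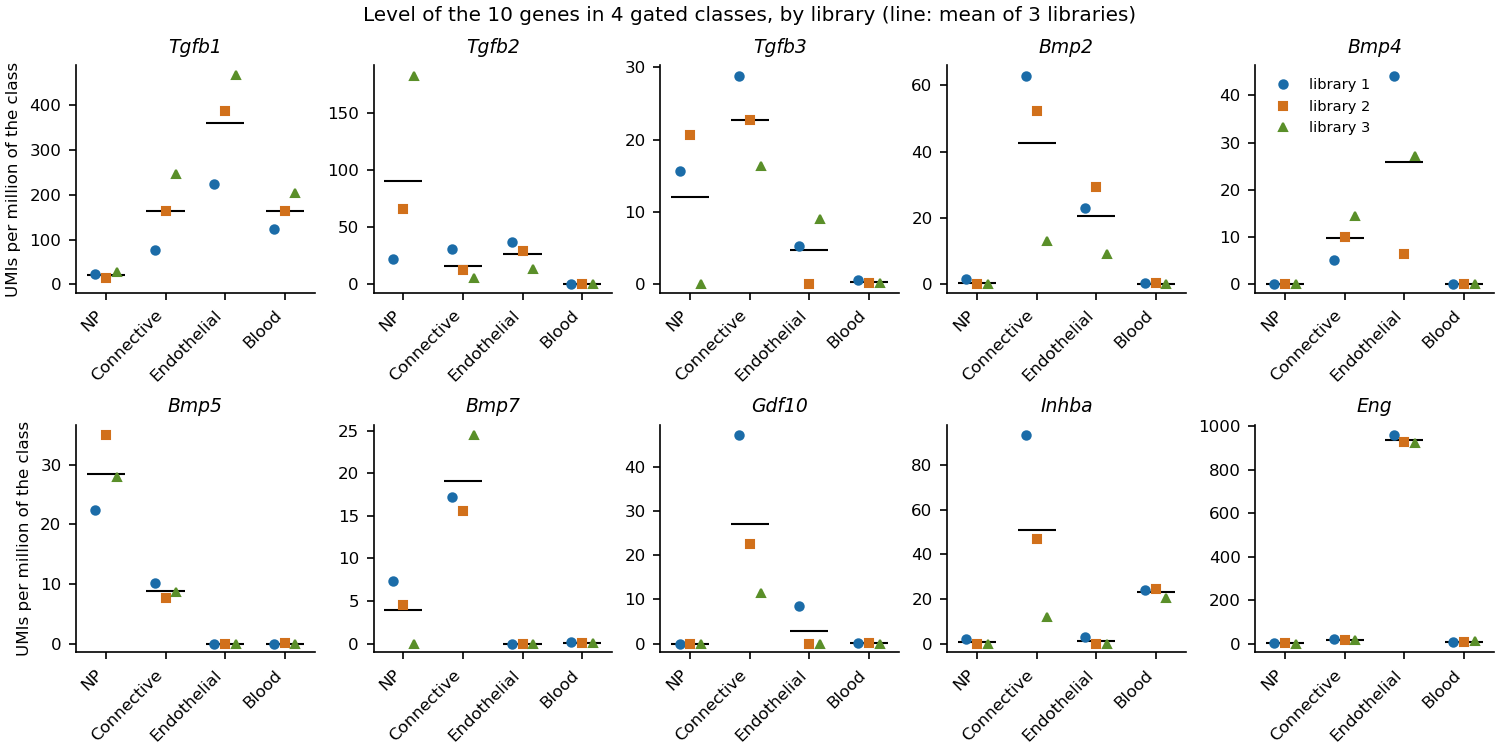
Level of each gene in CPM (y axes, linear, each with its own scale) in the NP, connective tissue, endothelial and blood classes (x axes), 1 point per library and a line at the mean of 3. Eng stands at 924 to 961 CPM in endothelial cells in all 3 libraries. Bmp5 is plotted highest in NP cells in each library, on 2 UMIs in library 3. The 3 NP values of Tgfb2 spread from 22.5 to 182 CPM.

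Tgfb2 encodes TGF-beta 2, a ligand that needs a co-receptor for tight receptor binding. Its gene is ENSMUSG00000039239 on the minus strand of mm10, chr1:186622792-186705989. In NP cells of libraries 1, 2 and 3 it had 43, 73 and 13 UMIs, or 22.5, 65.5 and 182 CPM. In connective tissue it stood at 30.9, 12.5 and 5.90 CPM, in endothelial cells at 36.8, 29.2 and 13.6 CPM, and in blood at or under 0.204 CPM. The NP value was above the connective value in libraries 2 and 3 and below it in library 1, and the ranges overlap. In library 3 the 13 UMIs came from 3 of 25 cells, and 11 of them from 1 cell. The fitted difference from connective tissue was a log2 fold change of 1.94 ± 0.60 (SE; edgeR quasi-likelihood test, Benjamini-Hochberg adjusted p = 0.0315). This call rests on libraries 2 and 3, since it was 1.85 (adjusted p = 0.193) without library 2, 1.12 (adjusted p = 0.185) without library 3 and 2.86 (adjusted p = 0.00117) without library 1. It was 1.84 (adjusted p = 0.0528) with the minimum of genes per cell lowered from 500 to 200. Against blood, Tgfb2 was higher in 3 of 3 libraries by 8.62 ± 0.76 on the log2 scale (edgeR adjusted p = 6.97e-07; 9.32 without library 1). Against endothelial cells the value was 1.68 ± 0.69 (edgeR adjusted p = 0.0759), which did not pass. It passed in 4 of the 17 alternative analyses, with DESeq2 (1.89, adjusted p = 0.0423), without the filter on low counts (1.67, adjusted p = 0.0217), with mixed NP and connective cells counted as NP (1.95, adjusted p = 0.0175) and without library 1 (2.21, adjusted p = 0.0314).

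Split by lineage, NP cells had the highest mean level of Tgfb2, 90.0 ± 82.6 CPM (SD, n = 3), but the loose fibroblasts at 65.5 ± 4.49 CPM did not separate from them. The NP mean was raised by library 3, at 182 CPM from 13 UMIs, beside 22.5 and 65.5 CPM in libraries 1 and 2. Over the summed libraries the order was reversed, with 129 of 3099820 UMIs in NP cells and 86 of 1284808 in loose fibroblasts. Loose fibroblasts stood between 60.3 and 68.5 CPM in every library, above the annulus or tendon cells at 31.7 ± 14.3 CPM with no overlap. Endothelial cells (26.5 ± 11.9 CPM), chondrocytes (18.6 ± 12 CPM) and osteoblasts (10.3 ± 12.6 CPM) followed with overlapping ranges. Marrow stromal cells had 3 UMIs in all, and basophil or mast, plasmacytoid dendritic, and T or NK cells had none. Of the 5 connective subclasses, NP cells were called higher for Tgfb2 than osteoblasts (3.55 ± 0.70, edgeR adjusted p = 4.07e-04; 4.72 without library 1 and 2.20 without library 3) and marrow stromal cells. The ratio to marrow stromal cells was 16.2 over the summed libraries (95% counting interval 5.43 to 79.7), and all 3 marrow stromal UMIs came from library 3. Fitted differences from chondrocytes (1.36), annulus (0.71) and loose fibroblasts (-0.02) did not pass. That from chondrocytes passed in 4 alternatives, namely without the filter on low counts (1.35, adjusted p = 2.77e-04), without library 1 (2.23, adjusted p = 0.0031), with mixed cells counted as NP (1.68, adjusted p = 0.0238) and with NP cells of at least 1% mitochondrial UMIs alone (1.52, adjusted p = 0.0471).

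Tgfb1, on chr7:25687002-25705077 of the plus strand (ENSMUSG00000002603), encodes the most widely made TGF-beta. It was the reverse of Tgfb2, with its lowest level in NP cells at 23.5, 13.5 and 28.0 CPM in libraries 1, 2 and 3. Connective tissue stood at 77.6, 164 and 247 CPM, endothelial cells at 224, 387 and 466 CPM, and blood at 124, 165 and 204 CPM. NP cells were below each of the other classes in 3 of 3 libraries with no overlap. Differences were -2.78 ± 0.43 against connective tissue (edgeR adjusted p = 3.71e-04), -3.24 ± 0.43 against endothelial cells (edgeR adjusted p = 8.37e-05) and -3.0 ± 0.42 against blood (edgeR adjusted p = 4.67e-05). Without library 1, where 13 of 45 NP UMIs came from 1 cell, they were -4.04, -4.43 and -3.94. Of the 14 lineages, endothelial cells (359 ± 123 CPM), monocytes or macrophages (274 ± 31.8 CPM), B lineage (261 ± 45 CPM), basophils or mast cells, plasmacytoid dendritic cells and osteoblasts (245 ± 36.2 CPM) formed an upper group of overlapping ranges, separate from the marrow stromal cells next in order at 142 ± 34.2 CPM. Loose fibroblasts (32.9 ± 11.4 CPM) and NP cells (21.7 ± 7.45 CPM) stood lowest and overlapped. The NP level was called lower than 4 of the 5 connective subclasses, and for loose fibroblasts the difference was -0.37 (edgeR adjusted p = 0.539). The chondrocyte call (-1.83) was lost with mixed NP and connective cells counted as NP (-1.15, adjusted p = 0.0617).

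Tgfb3, on chr12:86056745-86079041 of the minus strand, encodes the TGF-beta known for tendon and palate development. It had 30, 23 and 0 UMIs in NP cells, or 15.7, 20.6 and 0 CPM, against 28.8, 22.7 and 16.4 CPM in connective tissue. A count of 0 in library 3 allows up to 42.0 CPM there at its depth, above the other values. The difference from connective tissue was -0.57 (edgeR adjusted p = 0.433). Loose fibroblasts (77.0 ± 16.3 CPM), annulus or tendon cells (59.2 ± 8.39 CPM) and marrow stromal cells (55.1 ± 7.05 CPM) overlapped one another and stood apart from chondrocytes at 23.0 ± 1.68 CPM. NP cells were called lower than each of these 3 high subclasses, by -1.88, -1.89 and -1.17 in the same order, the last lost without library 2 (adjusted p = 0.087) or library 3 (adjusted p = 0.131) and with at most 5% mitochondrial UMIs per cell (adjusted p = 0.0601). They were called higher than blood, by 5.65 ± 0.56 (edgeR adjusted p = 1.86e-06; 4.84 without library 2), and higher than endothelial cells, by 2.51 ± 0.74 (edgeR adjusted p = 0.0187). The endothelial call was lost without library 1 (2.51, adjusted p = 0.129) or library 2 (1.68, adjusted p = 0.172).

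Bmp5 encodes a BMP known for skeletal patterning and ear cartilage (ENSMUSG00000032179, plus strand, chr9:75775364-75900310). Among the BMP ligands it was the 1 called higher in NP cells than in connective tissue. It had 43, 39 and 2 UMIs in NP cells of libraries 1, 2 and 3, or 22.5, 35.0 and 28.0 CPM, against 10.2, 7.68 and 8.61 CPM in connective tissue. Endothelial cells had none, and blood had 3 UMIs, all in library 2. NP cells were above connective tissue in libraries 1 and 2, and the fitted difference over all libraries was 1.56 ± 0.45 on the log2 scale (edgeR adjusted p = 0.0264). In library 3 the NP value was higher as well, but its 2 UMIs, at 14.0 CPM each, are too few to set an order. The call was lost without library 1 (1.59, adjusted p = 0.0722) or library 2 (1.29, adjusted p = 0.245), while the size stayed near. The mean NP level was 14.0 times that of 3 UMIs over the endothelial class, which had none (edgeR adjusted p = 2.36e-04). A fold given below as at least so large is of this kind, with libraries not matched. The ratio to blood was 2479 over the summed libraries (95% counting interval 820 to 12262), and without library 2 blood had no UMI.

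Marrow stromal cells were the other Bmp5 class and stood above NP cells, at 48.7, 74.6 and 67.7 CPM, with no overlap between the classes. The fitted difference between them, -0.60 (edgeR adjusted p = 0.222), did not pass. Next in order were chondrocytes at 11.1 ± 5.64 CPM and osteoblasts at 7.74 ± 3.03 CPM, separate from NP cells at 28.5 ± 6.29 CPM. In these orders the NP value of library 3 rests on 2 UMIs. NP cells were called higher than chondrocytes (1.72 ± 0.37, edgeR adjusted p = 0.00118) and osteoblasts (2.00 ± 0.39, edgeR adjusted p = 4.15e-04), and without library 2 both calls were lost (1.22, adjusted p = 0.15, and 1.78, adjusted p = 0.0529). Annulus or tendon cells had 3 UMIs and loose fibroblasts 2, which gives NP ratios of 17.7 (95% counting interval 5.86 to 87.7) and 17.4 (4.67 to 146).

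Bmp2, on chr2:133552159-133562885 of the plus strand, encodes an osteogenic and chondrogenic BMP. It was nearly absent from NP cells, with 3, 0 and 0 UMIs, against 62.9, 52.2 and 13 CPM in connective tissue and 23.2, 29.2 and 9.06 CPM in endothelial cells. NP cells were below both classes in libraries 1 and 2. In library 3 their 0 allows up to 42.0 CPM, above both levels there, so it sets no order. The connective level was 41.0 times the NP level over the summed libraries (95% counting interval 14.0 to 199; edgeR adjusted p = 1.43e-05), and the endothelial level was 23.1 times as high (7.23 to 117; edgeR adjusted p = 5.58e-04). Both calls held without library 1, the only one with NP UMIs (adjusted p = 8.04e-05 and 0.00229), where the fitted fold has 0 UMIs behind it and is no measure of size. Without library 2 the fitted differences were -4.87 and -3.23. Chondrocytes had 64.1, 90.9 and 39.2 CPM, a mean of 64.7 ± 25.9 CPM, and overlapped with annulus or tendon cells at 36.7 ± 19.1 CPM. The order went on through loose fibroblasts (24.3), endothelial cells (20.5), osteoblasts (16.4) and marrow stromal cells (12.5 CPM), each overlapping the next, and every lineage below them had a mean under 1 CPM. Connective tissue was called higher than endothelial cells (1.63 ± 0.39, edgeR adjusted p = 0.00534), a call lost without library 1 (1.33, adjusted p = 0.0615) or library 2 (1.64, adjusted p = 0.0516).

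Bmp4, on chr14:46383520-46390669 of the minus strand, encodes the BMP closest to Bmp2. It had no UMI in any NP cell, against 5.26, 9.99 and 14.5 CPM in connective tissue and 44.2, 6.50 and 27.2 CPM in endothelial cells. With 3 UMIs set over the NP class, the mean connective level was 10.2 times as high (edgeR adjusted p = 0.0092). The mean endothelial level was 26.8 times as high (edgeR adjusted p = 0.00247). Library 1 held 1914334 of the 3099820 NP UMIs and had the lowest connective level, so the connective fold would be smaller if matched by library. Within connective tissue the level was in loose fibroblasts (58.3, 60.3 and 86.7 CPM) and marrow stromal cells (16.2, 62.7 and 86.1 CPM), which overlapped each other and the annulus or tendon cells (26.3 ± 24.2 CPM) and endothelial cells next in order. Osteoblasts at 8.23 ± 2.97 CPM separated from chondrocytes at 0.744 ± 0.697 CPM, where Bmp2 was highest. NP cells were called lower than each subclass except chondrocytes.

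Bmp7, on chr2:172868012-172940321 of the minus strand, encodes a BMP known for kidney and skeletal development. It had 14, 5 and 0 UMIs in NP cells, or 7.31, 4.49 and 0 CPM, against 17.2, 15.6 and 24.5 CPM in connective tissue, with no overlap. The 0 of library 3 allows up to 42.0 CPM, above the connective level there. The difference between NP cells and connective tissue was -1.69 ± 0.52 (edgeR adjusted p = 0.0362). It was lost without library 2 (-1.62, adjusted p = 0.226) or library 3 (-1.41, adjusted p = 0.0859) and was -2.49 without library 1. It was also lost with a minimum of 1000 genes per cell (-1.58, adjusted p = 0.0578) and with all 4 NP markers required (-1.63, adjusted p = 0.052). Loose fibroblasts (21.7 ± 3.25 CPM), osteoblasts (17.2 ± 13.2 CPM) and chondrocytes (16.7 ± 3.41 CPM) held the highest levels and overlapped, and osteoblasts of library 1 stood at 2.25 CPM beside 22.1 and 27.2 CPM in the others. NP cells were called lower than osteoblasts (-1.73, edgeR adjusted p = 0.0324), which was lost without library 2 (-1.04) or library 3 (-1.33) and was -2.81 without library 1. It was also lost with 1000 genes per cell (adjusted p = 0.0576) and with DESeq2 (adjusted p = 0.0764). The differences from chondrocytes (-1.35) and loose fibroblasts (-1.26) did not pass, and passed in 3 and 2 of the alternatives. Annulus or tendon, marrow stromal and endothelial cells had none. NP cells were at least 2.57-fold, 1.53-fold and 1.94-fold higher than these in that order (edgeR adjusted p = 0.0325, 0.0257 and 0.00823). Of the 1170036 marrow stromal UMIs, 650271 came from library 3, where NP cells had 0 UMIs of Bmp7, so the 1.53-fold would be smaller if matched by library. The marrow stromal call was lost without library 2 or 3 (adjusted p = 0.0627 and 0.132), the endothelial call without library 1 (adjusted p = 0.179), and the annulus call without any 1 of the libraries (adjusted p = 0.0685, 0.108 and 0.0824).

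Gdf10, also named Bmp3b, on chr14:33923587-33937983 of the plus strand, encodes a member of the BMP3 subfamily. No NP cell held a UMI of it, against 47.2, 22.5 and 11.5 CPM in connective tissue. NP cells were at least 28.0-fold lower than connective tissue (edgeR adjusted p = 9.48e-05). Marrow stromal cells had 81.2, 77.6 and 84.6 CPM and loose fibroblasts 58.3, 106 and 77.6 CPM. These were separate from chondrocytes at 52.9, 43.6 and 12.2 CPM, which overlapped the annulus or tendon cells at 17.6 ± 18.5 CPM. Endothelial cells had 8 UMIs, all in library 1, so the call of NP cells as lower than endothelial cells (edgeR adjusted p = 0.0216, at least 2.90-fold) ended without library 1 (adjusted p = 1), and it was lost with DESeq2 (adjusted p = 0.0738).

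Inhba, on chr13:16011851-16031621 of the plus strand, encodes the subunit of activin A, a ligand that signals through the same Smads as TGF-beta. It had 4, 0 and 0 UMIs in NP cells, against 93.6, 46.9 and 11.7 CPM in connective tissue and 24.2, 24.4 and 20.4 CPM in blood. NP cells were called lower than both, by -5.43 ± 0.76 (edgeR adjusted p = 1.73e-04; -4.76 without library 2) and -4.88 ± 0.79 (edgeR adjusted p = 1.58e-04). The 0 of library 3 allows up to 42.0 CPM, above both levels there, so only libraries 1 and 2 show this order. Both calls held without library 1 (adjusted p = 0.00124 and 5.55e-04), where NP cells are at 0. Chondrocytes (100, 89.8 and 179 CPM) and annulus or tendon cells (89.4, 112 and 72.1 CPM) overlapped and stood apart from the neutrophils next in order, at 34.9, 56.2 and 41.4 CPM. Basophils or mast cells had 86.2 CPM in library 1 beside 3.34 and 3.33 CPM in the others. Neutrophils held 5453 of the 6244 blood UMIs of Inhba, while T or NK cells had none. Osteoblasts stood at 3.45 ± 1.17 CPM, and they were the 1 connective subclass from which NP cells did not differ by the test (-1.26, edgeR adjusted p = 0.257).

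Eng encodes endoglin, which binds TGF-beta family ligands at the surface of endothelial cells (ENSMUSG00000026814, plus strand, chr2:32646595-32682669). Endothelial cells had 913, 286 and 204 UMIs in libraries 1, 2 and 3, or 961, 929 and 924 CPM. Connective tissue stood at 19.6, 17.8 and 16.6 CPM, blood at 7.02, 8.90 and 10.8 CPM, and NP cells at 3.13, 3.59 and 0 CPM. The library ranges of the 4 classes did not overlap. The 0 of NP cells in library 3 allows up to 42.0 CPM, above the connective and blood levels there. On the log2 scale connective tissue differed from endothelial cells by -5.02 ± 0.29 (edgeR adjusted p = 4.13e-08) and NP cells by -7.48 ± 0.40 (edgeR adjusted p = 2.42e-07), and endothelial cells differed from blood by 5.88 ± 0.30 (edgeR adjusted p = 5.45e-09). In these 3 comparisons 29.7%, 32.9% and 47.1% of the 13431 genes were called in either direction.

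NP cells had less Eng than connective tissue, by -2.46 ± 0.41 (edgeR adjusted p = 6.87e-04), and less than blood, by -1.60 ± 0.42 (edgeR adjusted p = 0.00568). The blood call was lost without library 2 (-1.66, adjusted p = 0.0776). Loose fibroblasts (90.6 ± 9.99 CPM), marrow stromal cells (80.3 ± 26.0 CPM) and annulus or tendon cells (38.6 ± 14.7 CPM) followed the endothelial cells in order. Erythroid cells stood at 23.7 CPM, above neutrophils at 1.64 to 2.24 CPM. NP cells were called lower than all 5 connective subclasses. The chondrocyte call (-1.90) was lost without library 2 (-1.81, adjusted p = 0.0629), and the osteoblast call (-1.35) without library 1 (adjusted p = 0.124) or library 2 (adjusted p = 0.277).

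**Figure D2:**
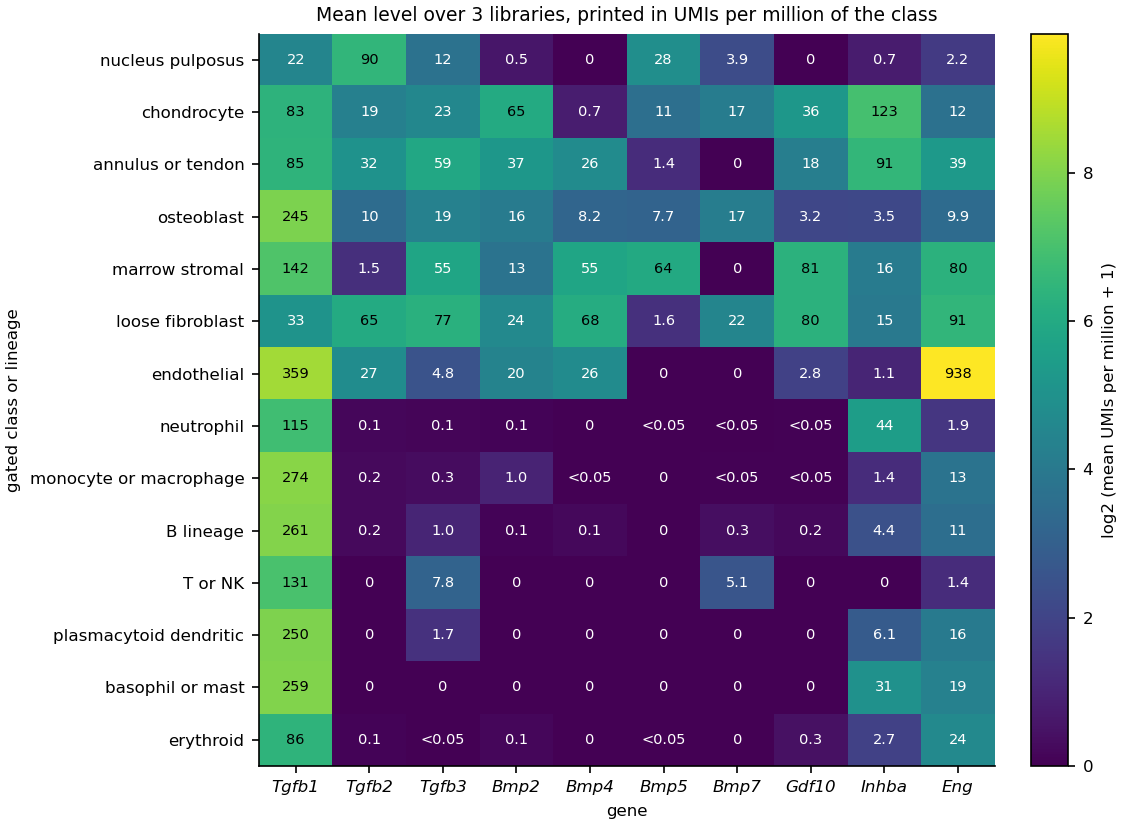
Mean level over 3 libraries of each of the 10 genes (x axis) in the 14 classes and lineages with at least 20 cells in at least 2 libraries, NP cells included (y axis), with colour as log2 of the mean CPM plus 1 and the CPM printed in each cell. Tgfb2 has its highest mean in NP cells (90.0 CPM), with loose fibroblasts at 65.5 CPM within the NP range, and Bmp5 in marrow stromal cells (63.7 CPM), with NP cells next at 28.5 CPM. The NP mean of Tgfb2 is raised by library 3 (182 CPM from 13 UMIs). Bmp2 and Inhba are highest in chondrocytes, overlapping annulus or tendon cells, and Eng is highest in endothelial cells.

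Across the other comparisons the counts of the 10 genes were set against high backgrounds. NP cells differed from endothelial cells in 3 genes called higher and 5 lower, beside 17.1% and 15.8% of all genes. From blood they differed in 4 higher and 3 lower, beside 23.9% and 27.9%, in a comparison where 51.8% of genes were called. Connective tissue was higher than endothelial cells for 6 genes and lower for 1, beside 17.3% and 12.3%, and Gdf10 and Inhba rested there on 8 and 3 endothelial UMIs, all in library 1. The Inhba ratio was 23.6 over the summed libraries (95% counting interval 8.05 to 114). Connective tissue was higher than blood for 8 genes and lower for none, beside 30.8% and 29.7% (60.4% in either direction). Tgfb1 (-0.22, edgeR adjusted p = 0.6) and Inhba (0.55, edgeR adjusted p = 0.258) were the exceptions, and the Eng call (0.86) was lost without library 2 (adjusted p = 0.121). Endothelial cells were higher than blood for 6 genes and lower for Inhba, beside 20.6% and 26.5%. Of these, the Tgfb3 call (3.14) was lost without library 1 (adjusted p = 0.107) or library 3 (adjusted p = 0.0619), and that of Gdf10 (4.69) turned to -3.34 (adjusted p = 0.884) without library 1. The endothelial level of Tgfb1 was above the blood level in 3 of 3 libraries with no overlap, yet its fitted difference was 0.24 (edgeR adjusted p = 0.616). The median of all genes in that comparison was -0.27 under the scaling used and 0.10 under that of DESeq2. Of the 11 comparisons this median moved most between the scalings, followed by that of connective tissue minus endothelial cells (0.21 and 0.01), and no called gene of the 10 changed direction with the scaling.

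**Figure D3:**
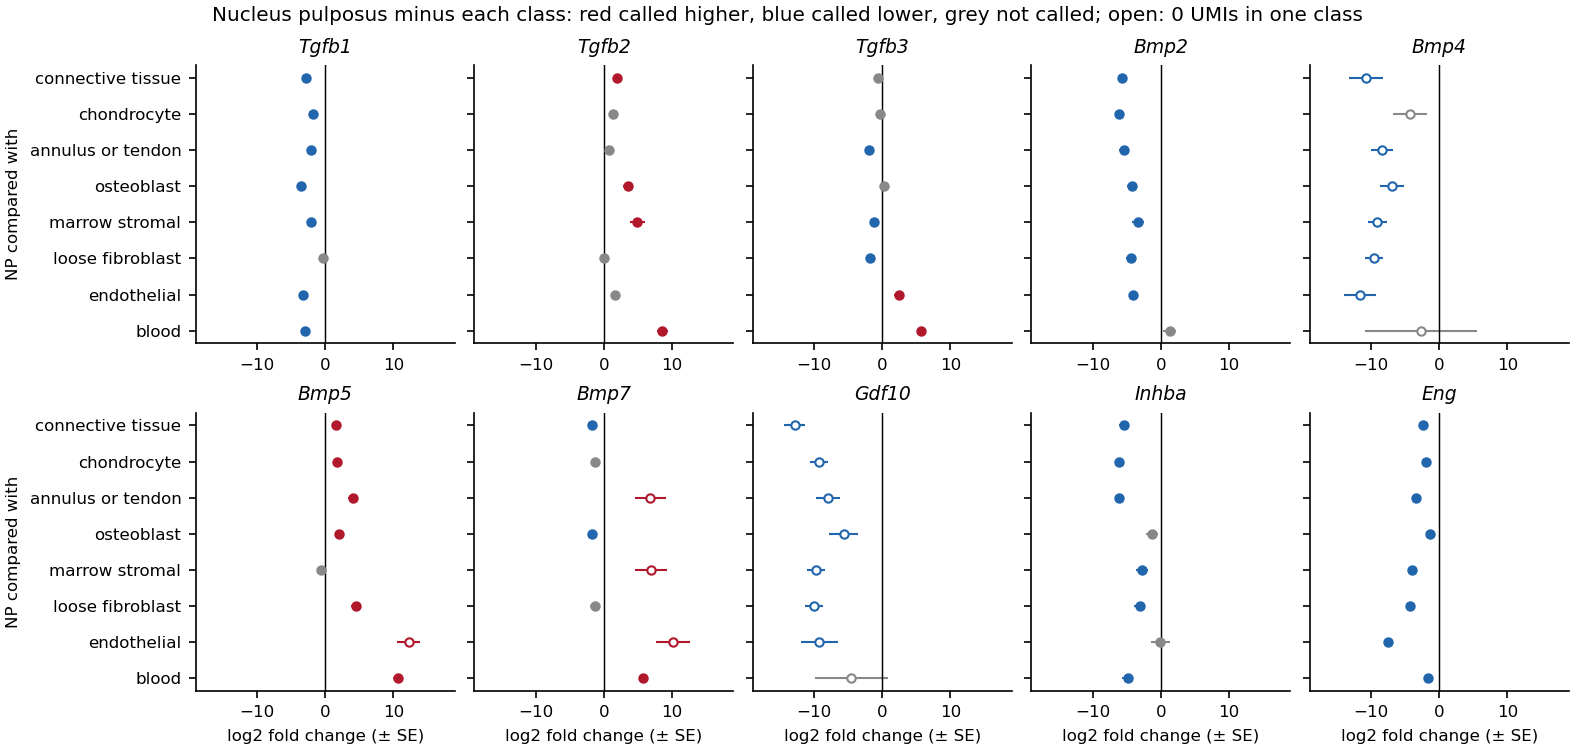
Log2 fold change of NP cells over each other class (y axis) for the 10 genes (panels), with bars of 1 SE from edgeR's quasi-likelihood fit; red was called higher, blue lower and grey not called, and open points have 0 UMIs in one class, so their position depends on the prior count and is no size. Bmp5 is called higher against every class except marrow stromal cells, and Eng lower against all 8.

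Against the 5 connective subclasses the fit tested 9063 genes. NP cells had 1 of the 10 genes higher and 5 lower than chondrocytes, where 16.2% and 17.4% of all genes were so called (33.6% in either direction). Against annulus or tendon cells 2 were higher and 7 lower, beside 14.4% and 16.2% (30.6%). Against osteoblasts 2 were higher and 6 lower, beside 20.4% and 20.2% (40.6%). Against marrow stromal cells 2 were higher and 7 lower, beside 18.7% and 21.2% (39.9%), and against loose fibroblasts 1 was higher and 6 lower, beside 15.3% and 18.5% (33.8%). Bmp2, Gdf10 and Eng were called lower in NP cells against all 5 subclasses. For Gdf10 the bounds ran from at least 3.35-fold against osteoblasts to at least 83.8-fold against marrow stromal cells. The osteoblast call for Gdf10 (edgeR adjusted p = 0.0451) was lost in 7 of the 17 alternatives, with adjusted p from 0.0611 to 0.199 (the last without library 1, and 0.115 without library 2), and turned in 1, and the marrow stromal calls for Bmp2 and Inhba without library 3 (adjusted p = 0.106 and 0.119). The subclasses made up different parts of connective tissue in each library, with 907, 294 and 46 chondrocytes and 42, 205 and 642 osteoblasts in libraries 1, 2 and 3. The connective levels of Tgfb2, Tgfb3, Bmp2, Gdf10, Inhba and Eng were lower, and those of Tgfb1 and Bmp4 higher, the fewer chondrocytes a library had, while Bmp5 and Bmp7 kept no such order. How many of all genes show such an order was not counted. Connective cells were also deeper in that order, with medians of 8737, 12986 and 15838 UMIs. Within chondrocytes alone, Tgfb2 (31.2, 17.3 and 7.35 CPM), Gdf10 and Eng fell and Tgfb1 rose in the same order. Tgfb3, Bmp2, Bmp4 and Inhba did not follow it there. The part of this makeup in the pooled levels, and in the Tgfb2 difference between NP cells and connective tissue, was not tested.

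Per cell, 96.8% ± 1.43 of endothelial cells held at least 1 UMI of Eng, beside 6.91% ± 1.35 of B lineage cells, a type that should hold little of it. Median UMIs per cell in libraries 1, 2 and 3 were 5083, 5495.5 and 5072 for endothelial cells and 3458.5, 4459.5 and 3320 for the B lineage. Thinned to 1000 UMIs per cell, the shares were 60.8% ± 1.70 and 0.859% ± 0.199. Tgfb2 was seen in 15.6% ± 12.3 of NP cells (27, 38 and 3 cells) and in 0.138% ± 0.0201 of B lineage cells, and after thinning in 3.75% ± 2.10 and 0.0425% ± 0.0321. Bmp5 was seen in 12% ± 8.35 of NP cells (31, 28 and 2 cells), after thinning in 1.96% ± 0.457, and in no B lineage cell. That 0 allows a share of B lineage cells with a UMI of up to 0.122% to 0.448% by library (exact Clopper-Pearson interval, counting error only), and it sets no limit on cells that express the gene below detection. NP cells had medians of 2735, 8917 and 2069 UMIs. The unthinned shares of Tgfb2 and Bmp5 were highest in library 2, where NP cells were deepest.

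A large part of the NP class carried almost no mitochondrial RNA, with 427, 33 and 17 of its cells under 1% mitochondrial UMIs in libraries 1, 2 and 3. The remaining 64, 97 and 8 cells held most of the Tgfb2 signal, at 54.7, 73.7 and 320.3 CPM beside 9.52, 7.32 and 0 CPM in the cells under 1%. Bmp5 stood at 38.3, 39.9 and 49.3 CPM beside 16.1, 0 and 0 CPM. Both genes were thus higher in the cells with mitochondrial RNA in libraries 1 and 2. In library 3 Tgfb2 had 13 against 0 UMIs, mostly from 1 cell, and Bmp5 had 2 against 0 UMIs, too few to set an order. Tgfb1 showed no such order, with 45.6, 13.3 and 0 CPM beside 14.6, 14.6 and 65.0 CPM. Its values rest on 13 against 2 UMIs in library 2 and 0 against 2 in library 3. With the cells of at least 1% alone, for which library 3 had too few cells and was dropped from the NP class, Tgfb2 stayed above connective tissue (1.75, edgeR adjusted p = 0.0307) and Tgfb1 below it (-2.45, edgeR adjusted p = 0.0173). The calls of Bmp5 (1.88, edgeR adjusted p = 0.0523), Bmp4 (edgeR adjusted p = 0.0609) and Bmp7 (-1.97, edgeR adjusted p = 0.0676) were lost. Against endothelial cells the calls of Tgfb3 and Gdf10 were lost as well, and so were the Eng calls against blood, chondrocytes and osteoblasts, with smaller differences (-0.97, -1.20 and -0.65). Against the other subclasses the calls of Bmp7 (annulus and marrow stromal), Inhba (marrow stromal and loose fibroblast) and Gdf10 (osteoblast) were lost. The part of cell integrity in these levels was not tested.

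**Figure D4:**
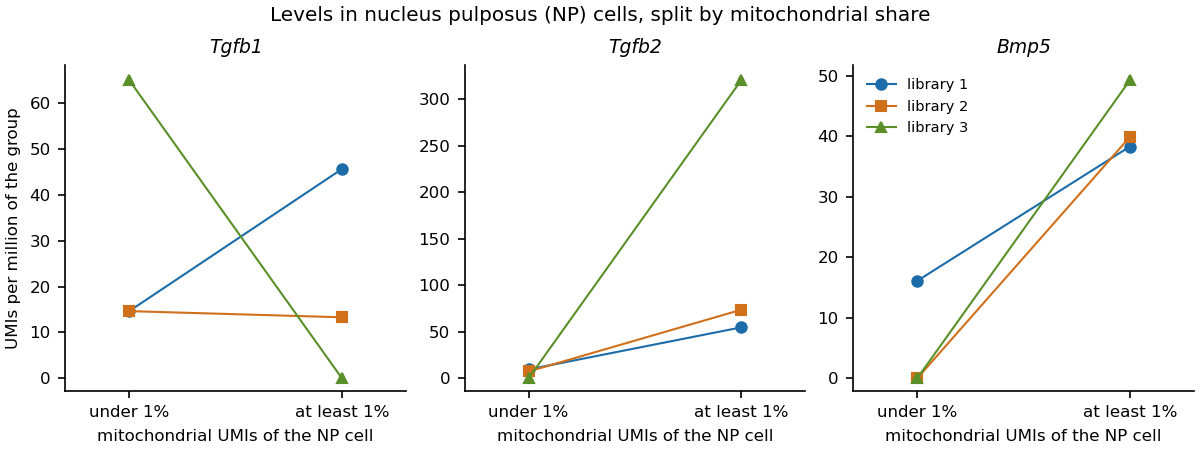
Level of Tgfb1, Tgfb2 and Bmp5 in CPM (y axes, linear) in NP cells under 1% and of at least 1% mitochondrial UMIs (x axes), 1 line per library. Tgfb2 and Bmp5 are plotted higher in the cells of at least 1% in all 3 libraries, whereas Tgfb1 is higher there in library 1 alone. Library 3 has 17 and 8 cells. Its points rest on 0 and 13 UMIs of Tgfb2, 0 and 2 of Bmp5, and 2 and 0 of Tgfb1.

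Cells that passed both the NP and the connective gate, 52, 21 and 1 in libraries 1, 2 and 3, were left out of both classes. They held Tgfb2 at 84.5 and 122 CPM and Bmp5 at 21.1 and 49.7 CPM in libraries 1 and 2. Those of library 1 also held Bmp2 at 48.9, Gdf10 at 52.3 and Inhba at 72.3 CPM, genes near 0 in the NP class, and those of library 2 held 2.76, 0 and 0 CPM. Whether such cells are doublets was not tested. Counted as NP cells, they left Tgfb2 (2.20) and Bmp5 (1.55) higher than connective tissue, brought the differences of Bmp2 to -2.32 and of Gdf10 to -2.51, and ended the calls of Bmp7 (-1.28, edgeR adjusted p = 0.100) and Inhba (-2.31, edgeR adjusted p = 0.0502). Against endothelial cells the Bmp2 call was lost (-0.64) and Gdf10 turned to 1.39 with no call, and against blood the calls of Inhba (-1.82) and Eng (-0.99) were lost. Among the subclasses the calls lost were those of Bmp2 against osteoblasts (-1.01, edgeR adjusted p = 0.184), marrow stromal cells (-0.13, edgeR adjusted p = 0.929) and loose fibroblasts (-1.08, edgeR adjusted p = 0.262), Gdf10 against annulus or tendon cells (-0.75, edgeR adjusted p = 0.582), and Bmp7 (-1.38) and Eng (-0.82) against osteoblasts, besides the Tgfb1 call against chondrocytes. Gdf10 against osteoblasts (1.46) and Inhba against marrow stromal cells (0.37) and loose fibroblasts (0.033) turned with no call. The near absence of Bmp2, Gdf10 and Inhba thus holds for NP cells that failed the connective gate.

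Shares of a gene's UMIs over the kept cells follow the mixture of cells recovered and their depth, and do not measure sources in the disc. The large blood class held 78.4% ± 8.24 of all Tgfb1 UMIs of the kept cells, 71.7% ± 27.5 of Inhba and 45.9% ± 27.3 of Eng. The few endothelial cells held 24.9% ± 20.7 of Eng. NP cells held 13.2% ± 8.94 of Tgfb2 and 14.9% ± 11.8 of Bmp5, and at most 4.50% of any other gene of the 10. Connective tissue held 53.1% to 80.4% of the UMIs of each of Tgfb2, Tgfb3, Bmp2, Bmp4, Bmp5, Bmp7 and Gdf10, as means over libraries.

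**Figure D5:**
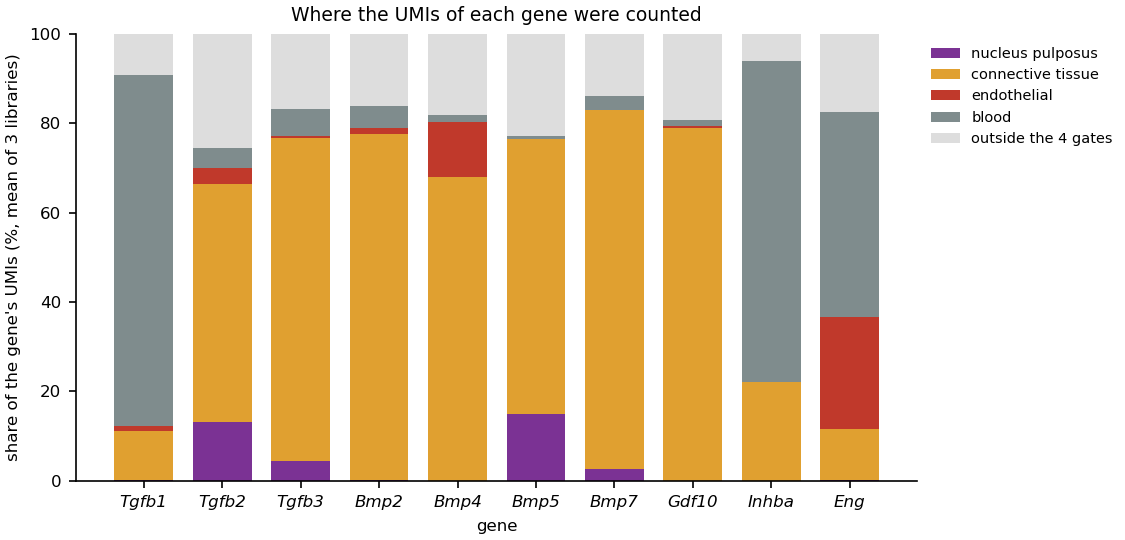
Share of each gene's UMIs (y axis, percent, mean of 3 libraries, stacked from 0 to 100) found in each class of kept cells, for the 10 genes (x axis). Blood fills most of the Tgfb1 and Inhba bars, connective tissue most of the bars of the BMP ligands, and NP cells are visible for Tgfb2 (13.2%) and Bmp5 (14.9%).

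Of 73 other genes of the pathway, 62 were tested, and NP cells had 5 of these called higher and 26 lower than connective tissue, where 9.08% and 13.8% of all genes were so called. Of 14 other ligands of the family 8 were tested, with none higher and 5 lower. Bmp3 had 2 NP UMIs against 66.5 ± 48.3 CPM in connective tissue, and Bmp8a had none against 12.1 ± 6.66 CPM, at least 12.5-fold lower (edgeR adjusted p = 0.0096). Of 7 type I receptors 5 were tested and 1 called, Acvrl1, lower by -2.78 (edgeR adjusted p = 0.0158). Of 4 type II receptors, the activin receptor Acvr2a was higher in NP cells, 85.0 ± 34.8 against 6.21 ± 1.27 CPM, a difference of 3.54 ± 0.36 (edgeR adjusted p = 1.23e-05), and the BMP receptor Bmpr2 was lower by -1.23 (edgeR adjusted p = 0.0111). Of 4 co-receptors other than Eng, the decoy receptor Bambi was lower, 5.80 ± 5.83 against 150.2 ± 71.0 CPM. Of 12 genes of latency and activation 11 were tested, with 1 higher and 6 lower. Ltbp1, whose product ties latent TGF-beta to the matrix, was higher at 109 ± 46.5 against 30.1 ± 20.8 CPM (1.68, edgeR adjusted p = 0.0117). Thbs1, a thrombospondin that can release TGF-beta, was lower by -6.80, and Fbn2, a fibrillin, had no NP UMI against 19.4 ± 14.9 CPM.

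Of 12 secreted antagonists 10 were tested, with 2 higher and 4 lower. The BMP antagonist Sostdc1 stood at 804 ± 542 CPM in NP cells against 0.534 ± 0.566 CPM in connective tissue (10.38 ± 0.62, edgeR adjusted p = 1.85e-07). The activin binder Fstl3 stood at 40.8 ± 14.6 against 10.7 ± 6.93 CPM (1.84, edgeR adjusted p = 0.0072). Chrdl1 and Chrdl2, chordin-like antagonists, had no NP UMI and were at least 26.6-fold and 21.4-fold lower. All 12 Smads and Smad regulators were tested, and none was higher and 5 were lower, led by Skil (-3.27) and Smad3 (-2.63). Of 8 common target genes 1 was higher and 3 lower. Id4, a BMP-responsive inhibitor of helix-loop-helix factors, was higher at 769 ± 199 against 41.0 ± 28.2 CPM (4.33 ± 0.58, edgeR adjusted p = 1.18e-04). Tgfbi (-2.37) and Ccn2 (-2.08), both known to follow TGF-beta, were lower. Against endothelial cells 11 of the 62 tested genes were higher in NP cells and 20 lower, beside 17.1% and 15.8% of all genes. Against blood 35 were higher and 7 lower, beside 23.9% and 27.9%.

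The genes whose pattern was most like that of a member were ranked by Pearson r of log2 CPM over 42 sums of 14 classes, among 13914 genes. For Tgfb2 these were Ackr3 (r = 0.94), Lims2 (0.93) and Cd109 (0.93), and for Bmp5 they were Kcnk2 (0.91), Ror2 (0.91) and Gper1 (0.89). Bmp2 was most like Hoxb6, Hoxb9 and Hoxb7 (0.96, 0.95 and 0.94), Bmp4 like Fat4 (0.97) and Gdf10 like Fzd1 (0.96). Tgfb3 was most like Arhgef17 (0.90), Bmp7 like Prss35 (0.86), Tgfb1 like Fli1 (0.85) and Eng like Arhgap6 (0.84). For Inhba the nearest gene was Tnfaip6 at 0.67, the lowest of the 10. The sums share libraries and differ in depth, so these values describe the table and carry no test.

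Genes that overlap others on the opposite strand in the annotation were Tgfb2 (Gm29491), Tgfb3 (Ttll5), Bmp4 (Gm15217 and Gm15222), Bmp5 (Gm26903), Inhba (Gm48444) and Eng (Fpgs). Whether counting used strand is not given in the sources used here, so reads of such partners cannot be told apart from those of the 6 genes.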

How the data were processed

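The authors deposited whole-number counts, that is UMIs per gene and cell barcode without normalization, on filtered barcodes. Per the submitters' processing notes, Cell Ranger 3.0.2, Seurat 4 and mm10 were used, while the file headers name software 3.0.1 for library 1 and 6.0.0 for libraries 2 and 3. Libraries 1, 2 and 3 held 64695292, 145925353 and 137188648 UMIs in 7430, 11767 and 11032 barcodes.

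Kept barcodes had 500 genes or more and 15% mitochondrial UMIs or less. A cell passed a gate with a UMI of at least 3 of its 4 to 8 markers, and cells of more than 1 broad class were left out as mixed. Lineages needed 20 cells in a library. Scrublet called 1 of 5732 cells of library 1, which is not a working call, so no doublets were removed other than mixed cells.

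Sums of UMIs over the cells of a class in a library entered edgeR 4.0.16 under R 4.3.3 (quasi-likelihood test, filterByExpr, TMM, Benjamini-Hochberg adjustment over all genes tested, called under 0.05), with 1 fit over the 4 classes and 1 over NP cells and the connective subclasses. The library served as replicate block, since the labels number each pool of animals and a pool gives every class of its library. Deviations from the mean of each class over the 3 libraries correlated at a median of 0.154 over 18 pairs of sums from the same library. Over 36 pairs from different ones it was -0.0952, and centring on 3 libraries by itself pushes these below 0 where same-library pairs are above it. The libraries are pools, so no p-value measures the spread between single animals. With the block, p-values measure how far class differences vary between these 3 pools. All classes of a fit share 1 estimate of this spread per gene. Their sums run from 71370 UMIs (NP cells, library 3) to 124888849 (blood, library 2). The SE is the size of the log2 fold change divided by the root of F. On counts of 13431 genes simulated at the depths of the real sums, NP minus connective tissue recovered 19 of 100 genes changed by 1.5 on the log2 scale. It recovered 83 of 100 changed by 3 and called 5 of 13231 unchanged genes. The simulated means were those of the 4 classes pooled, mostly blood, with 1 fixed spread for all genes and no library effect. These shares therefore do not measure recovery or error in the real fit. Where a class had no UMI, the fold sets that class at 3 UMIs over its summed libraries. The other class enters at its mean CPM over libraries. Such a fold is called a bound, but libraries are not matched in it, so a matched fold can be smaller. With 1 to 3 UMIs a ratio of summed UMIs is given with its exact 95% binomial interval. Intervals cover counting error only.

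The 10 genes, gates and pathway lists were chosen with earlier results of these data known. Of each pathway list, the genes named are those with the 2 largest log2 fold changes each way among those called, and the text prints part of them, with the 3 nearest genes by Pearson r for some of the 10. The 17 alternatives were other mitochondrial and gene limits, Scrublet removal, NP gates of 2 and 4 markers, mixed NP and connective cells counted as NP, NP cells of at least 1% mitochondrial UMIs, other size factors, DESeq2 1.42.0, no count filter, no block and leaving out each library. Other steps ran in scanpy 1.11.5, pandas 2.3.3, scipy 1.17.1 and numpy 2.4.6 under Python 3.11.15. Gene positions are those of GENCODE, and promoter sequences those of RefSeq.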

Additional observations from a re-analysis of the deposited data

Results flagged for a closer look

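UMIs of all 10 genes were also found in the kept cells outside the 4 gates, which no comparison used. These cells, mixed or ungated, held 4874 UMIs of Tgfb1, 287 of Tgfb2, 189 of Tgfb3, 309 of Bmp2, 87 of Bmp4, 123 of Bmp5, 113 of Bmp7, 237 of Gdf10, 469 of Inhba and 985 of Eng. The 3 UMIs that a count of 0 allows are no threshold for sums of this size, and no control samples exist. Most came from cells that passed more than 1 broad gate, which held 264 of the 287 UMIs of Tgfb2, 116 of the 123 of Bmp5 and 953 of the 985 of Eng.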

How the results depend on the processing

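Over the 10 genes and 11 comparisons, 1367 values called in the reported fits kept direction and call under the alternatives, 73 lost the call and 5 turned, and of those not called 383 stayed, 15 gained a call and 27 turned. Called values turned with mixed NP and connective cells counted as NP, for Gdf10 against endothelial cells (1.39) and osteoblasts (1.46) and for Inhba against marrow stromal cells (0.37) and loose fibroblasts (0.033), and without library 1 for Gdf10, endothelial minus blood (-3.34 to 4.78 with 1 library left out). These rest on 0 to 4 NP UMIs or 8 endothelial UMIs.

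Uncalled values that turned follow, with the cause not tested. Inhba, NP minus endothelial, was 0.15 with 1000 genes, 0.49 in NP cells of at least 1% mitochondrial UMIs, 0.016 without the replicate block, 3.24 with mixed cells and -0.33 to 0.20 with 1 library left out. Tgfb2, NP minus loose fibroblast, was 0.042 with 1000 genes, 0.034 after Scrublet, 0.059 with 4 markers, 0.26 with mixed cells, 0.018 in cells of at least 1%, 0.40 with DESeq2, 0.0074 with no filter, 0.13 without the block and -0.23 to 0.45 with 1 library left out. Against blood, Gdf10 in NP cells was 1.32 with 2 markers, 5.85 with mixed cells and 2.06 with DESeq2, Bmp4 was 3.68 and 3.30 under the last 2, and Bmp2 was -6.69 to 2.03 with 1 library left out. DESeq2 gave 4.91 and 1.68 for Bmp5 and Bmp7, endothelial minus blood. With mixed cells Inhba against osteoblasts was 1.79 and Tgfb1 against loose fibroblasts 0.35. With 1 library left out, Bmp4 in connective tissue minus endothelial was -1.47 to 0.35, Tgfb1 in connective tissue minus blood -0.53 to 0.10 and Tgfb3 in NP cells minus osteoblasts -0.24 to 0.62. In these ranges library 2 was the one whose absence turned Inhba against endothelial cells and Tgfb3, and library 1 the others.

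Counts of genes called in NP minus connective tissue were 3066 as reported, 1960 with NP cells of at least 1% mitochondrial UMIs and 1369 to 2621 with 1 library left out. The same ranges were 2576 to 3665 against endothelial cells, 4717 to 6632 against blood, 1937 to 2387 against chondrocytes, 1702 to 2279 against annulus or tendon cells, 2240 to 3381 against osteoblasts, 2379 to 3064 against marrow stromal cells and 2076 to 2308 against loose fibroblasts. For connective tissue they were 2491 to 3158 minus endothelial and 6228 to 8324 minus blood, and for endothelial minus blood 4381 to 5158. Without the replicate block 2752, 4048 and 6675 genes were called for NP cells minus connective, endothelial and blood cells, and the calls of Bmp2 in connective tissue minus endothelial (1.60, adjusted p = 0.065) and of Gdf10 in NP minus endothelial (adjusted p = 0.111) were lost, with no other call of the 10 genes changed.

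The 25 NP cells of library 3 limit NP levels there to steps of 14.0 CPM.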
